A study of Mus musculus with 36 samples.

Results

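The genes that bind estrogens in the fetal mouse mammary gland, and the proteins that carry the signal of the bound receptors to the transcription machinery, were followed across tissue compartment, ERα genotype and fetal exposure. The set was named gene by gene: Esr1 (ERα) and Esr2 (ERβ), the membrane receptor gene Gper1, the estrogen-related receptors Esrra and Esrrg, the coactivators Ncoa1, Ncoa2 and Ncoa3, and the corepressors Ncor1 and Nrip1. Probe sets annotated to exactly 1 of these symbols were taken, and of the 45101 probe sets on the array 26 met that rule, covering 9 of the 10 genes. Ncor1 was not analysed here. Where a gene had several probe sets, the one of highest mean signal over all arrays stands for the gene, and the other 17 are described by their changes.

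The samples were laser-captured ductal epithelium, and stroma lying next to the ducts, from glands of E19 female mouse fetuses. Fetuses were ERα(-/-), a germline null, or ERα(+/+), of C57BL/6 background, and all were offspring of ERα(+/-) matings. Dams had received bisphenol A (BPA) at 250 ng per kg per day, the synthetic estrogen ethinyl estradiol (EE2) at 10 ng per kg per day, or DMSO vehicle, through pumps from embryonic day 8 to day 19. The 2 compartments, 2 genotypes and 3 exposures gave 12 groups of 3 arrays, 36 arrays in all. The 3 arrays of a group came from separate litters per the study's methods, 1 inguinal gland each. By the same methods each treated litter gave 1 fetus of each genotype, so the 2 genotypes can share litters. The labels do not name the litter of an array. Ducts and stroma of each gland were collected separately, so the 2 compartments share glands, but the labels do not say that arrays of 1 replicate number are of the same gland. The tests treat the 36 arrays as separate samples, and values with the number as a block are given where they change a call. The few captured cells gave so little RNA that it was amplified before labelling.

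Estrogen receptors ERα and ERβ are ligand-activated transcription factors. They are held by chaperones until estrogen binds, then pair, bind DNA at estrogen response elements and recruit p160 coactivators, which bring in histone-modifying enzymes. Corepressors compete for the same surfaces. Gper1 encodes a membrane receptor coupled to G proteins that signals rapidly, and the estrogen-related receptors resemble ERα in sequence but bind no natural estrogen. In the developing mammary gland, ERα is present in the mesenchyme around the bud and, later, in a subset of ductal cells.

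The estrogen response element consists of inverted copies of the half-site GGTCA, and the promoters of the receptor genes themselves were read for that motif. Windows of 250 bases before each annotated start were taken from RefSeq on build GRCm38.p6, both strands were searched, and 8 of the 10 genes had a window, 14 windows in all. A half-site was found in 2 of the 14 windows, against 35.2% of the 32851 windows of all genes. The full palindrome (both half-sites as inverted repeats, 3 bases apart) was in 0 of the 14, against 0.0639% of all windows. The windows with a match and those of Esr1, the gene targeted in these mice, are printed 5′ to 3′ on the gene's strand, with half-sites in capitals.
Esr1, chr10:4611739-4611988, plus strand: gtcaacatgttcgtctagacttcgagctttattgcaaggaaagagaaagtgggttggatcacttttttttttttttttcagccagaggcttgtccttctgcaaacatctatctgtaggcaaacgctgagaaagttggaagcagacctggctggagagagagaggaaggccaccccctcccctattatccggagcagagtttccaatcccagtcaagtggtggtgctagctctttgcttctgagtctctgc
Esr1, chr10:4709908-4710157, plus strand: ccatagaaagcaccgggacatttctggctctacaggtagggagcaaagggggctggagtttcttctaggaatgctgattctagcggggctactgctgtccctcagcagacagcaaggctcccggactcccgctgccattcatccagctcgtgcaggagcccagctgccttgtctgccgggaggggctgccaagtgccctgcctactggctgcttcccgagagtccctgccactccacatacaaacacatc
Esr2, chr12:76177260-76177509, minus strand: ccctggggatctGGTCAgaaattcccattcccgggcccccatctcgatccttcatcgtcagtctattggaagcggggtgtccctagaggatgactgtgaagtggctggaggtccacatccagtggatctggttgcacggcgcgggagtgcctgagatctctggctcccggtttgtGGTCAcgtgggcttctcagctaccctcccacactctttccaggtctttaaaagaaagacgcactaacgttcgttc
Nrip1, chr16:76373828-76374077, minus strand: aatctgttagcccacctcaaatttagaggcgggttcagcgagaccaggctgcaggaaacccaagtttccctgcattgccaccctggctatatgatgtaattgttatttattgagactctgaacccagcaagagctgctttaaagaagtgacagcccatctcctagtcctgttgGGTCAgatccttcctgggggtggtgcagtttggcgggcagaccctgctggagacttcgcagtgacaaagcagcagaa
The Esr2 window held half-sites starting 238 and 75 bases before the start, and the Nrip1 window held 1 starting 77 bases before it, while neither Esr1 window held these letters. A match is a description of the sequence and was not set against any binding measurement.

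Signals are linear array intensities. The median signal of an array lay between 10.9 and 66.8, and 2 arrays were dim, both of ERα(+/+) vehicle replicate 2. Epithelial markers (Krt8, Epcam and others, 8 genes) summed to 382.4 to 4189.5 in stroma, against 9445.9 to 17651.8 in epithelium, and fibroblast markers (Col1a1, Pdgfra and others, 7 genes) summed to 28425.6 to 45512.8 in stroma, against 7430.5 to 29045.5 in epithelium, with no marker of either list at 0. Skeletal muscle genes were high on 7 arrays, and keratinised epidermis genes were high on the stroma and epithelium arrays of ERα(+/+) vehicle replicate 3 (sums of 17632.4 and 12247.8, against 45.9 to 656.6 on the others).

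Esr1 signal was read first, since it is the gene inactivated in these mice. In ERα(-/-) stroma the probe set 1435663_at gave 13.9, 49.9 and 81.8 with BPA, 25.7, 53.0 and 46.6 with EE2, and 26.3, 34.6 and 37.6 with vehicle. In ERα(+/+) stroma it gave 114.5, 33.4 and 182.5 with BPA, 51.5, 20.3 and 213.4 with EE2, and 50.4, 201.3 and 396.7 with vehicle. ERα(-/-) stroma was thus lower on average, but its range of 13.9 to 81.8 lay across the lower part of the ERα(+/+) range of 20.3 to 396.7, and the groups separated fully among the vehicle arrays. How many of all probe sets separate among those arrays was not counted.

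In the epithelium the same probe set gave 31.7, 44.1 and 100.2 with BPA, 9.7, 23.1 and 31.8 with EE2, and 13.3, 2.9 and 1.6 with vehicle in ERα(-/-) fetuses. The ERα(+/+) epithelium arrays gave 99.0, 34.4 and 142.0 with BPA, 41.2, 18.4 and 36.3 with EE2, and 17.9, 1.1 and 44.8 with vehicle. Within both genotypes the BPA arrays were the highest on average and vehicle the lowest, and every ERα(-/-) group overlapped its ERα(+/+) counterpart. Signal above 0 on ERα(-/-) arrays checks the labels only if the probe set lies in the deleted part of the gene, and the position of the deletion was not given in the sources used here.

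**Figure D1:**
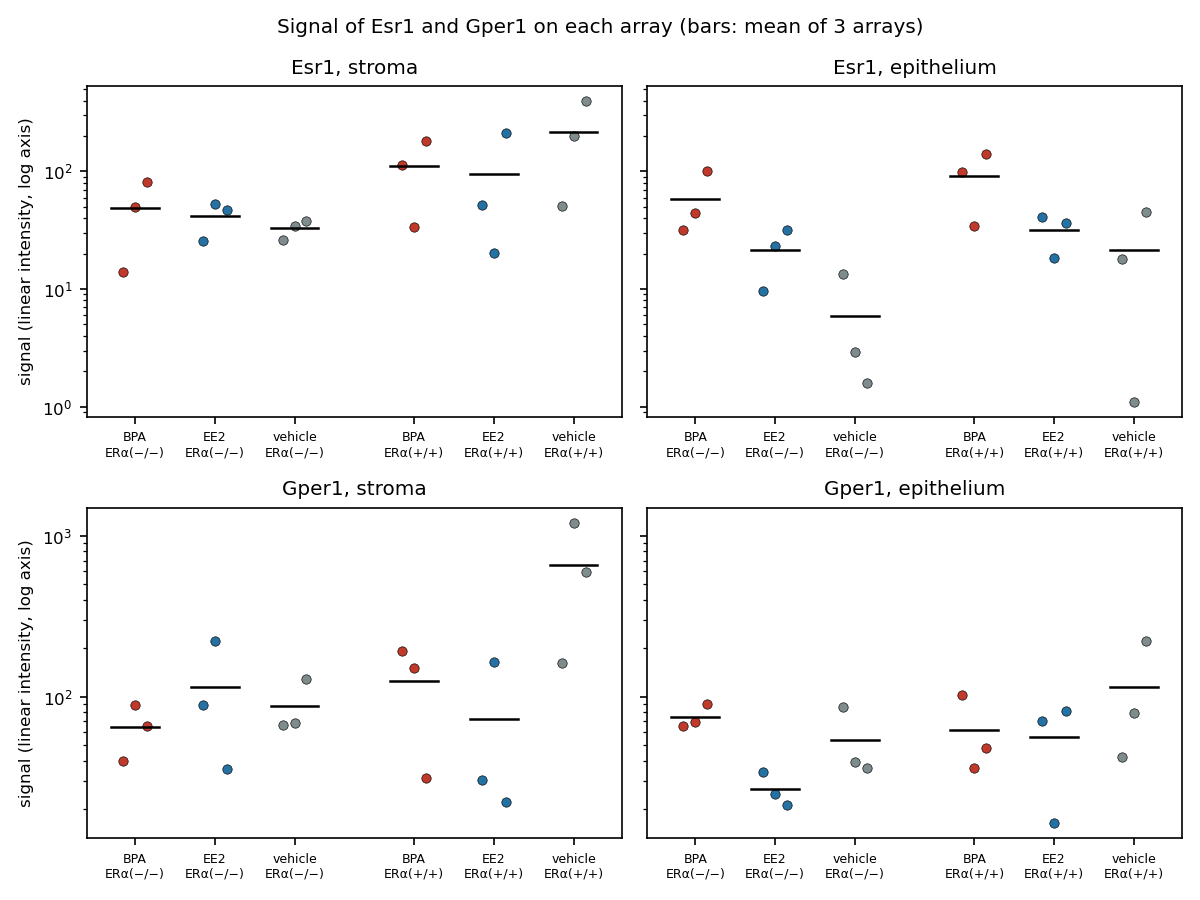
Signal of Esr1 (1435663_at) and Gper1 (1447583_x_at) on each array (linear intensity, log axis) by exposure and genotype, in stroma on the left and epithelium on the right. Points are arrays and bars are means of 3. In stroma, the ERα(+/+) vehicle arrays hold the highest points of both genes, 396.7 for Esr1 and 1206.9 for Gper1.

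Ranked by mean log2 signal, the 12 groups ran for Esr1 between ERα(+/+) vehicle stroma (7.31) and ERα(-/-) vehicle epithelium (1.98). No step between neighbouring groups in that order was larger than the spread between replicates. For Gper1, ERα(+/+) vehicle stroma stood first (8.93 ± 1.47, SD, n = 3), 2.34 log2 units above the next group. That step was larger than the spread, and none of the lower steps was.

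Of all 9 genes only Esr1 differed between compartments by the test: it was higher in stroma. Esr1 ran between 13.9 and 396.7 with a median of 50.15 in stroma, and between 1.1 and 142.0 with a median of 31.75 in epithelium. The ranges overlapped, and the means were 90.7 ± 99.0 in stroma and 38.5 ± 38.3 in epithelium (SD, n = 18 each). The log2 change, stroma minus epithelium, was 1.48 ± 0.44 (SE; limma, Benjamini-Hochberg adjusted p = 0.0201). Over all probe sets 16.7% were called in this comparison, 3.49% as higher and 13.2% as lower, and the median change of all probe sets was -0.35, so that Esr1 lay 1.83 above it. With quantile normalization that median was -0.01, and 3280 probe sets were called higher and 3300 lower, against 1573 higher and 5959 lower on the deposited scale. Esr1 passed the test in every alternative run, with changes between 0.83 and 1.94, and with the replicate number as a block its adjusted p was 0.0102. The call averages over exposures. With vehicle, mean log2 signals were 7.31 in stroma and 3.26 in epithelium of ERα(+/+), and 5.02 and 1.98 of ERα(-/-). With EE2 they were 5.92 and 4.92, and 5.32 and 4.27. With BPA they were 6.47 and 6.29 in ERα(+/+), and 5.26 and 5.70 in ERα(-/-), where epithelium was the higher. The compartments were not tested within an exposure. Fewer Esr1-positive cells and less Esr1 RNA per cell cannot be told apart in bulk samples. The other 2 Esr1 probe sets had changes of 1.24 (1421244_at, adjusted p = 0.0658) and 1.30 (1460591_at, adjusted p = 0.0853).

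Gper1, the membrane receptor gene, ran between 22.2 and 1206.9 with a median of 89.2 in stroma, and between 16.3 and 222.7 with a median of 56.9 in epithelium. Its log2 change was 0.92 ± 0.35 (SE), which did not pass the test (adjusted p = 0.0711). It passed under quantile normalization (1.33, adjusted p = 0.00701), 4 other processing alternatives, and the removal of any 1 of 5 arrays: replicate 1 of vehicle, replicate 3 of BPA or replicate 3 of EE2 in ERα(+/+) stroma, replicate 3 of EE2 in ERα(-/-) stroma, or replicate 3 of vehicle in ERα(+/+) epithelium (changes of 1.02 to 1.06, adjusted p = 0.0329 to 0.0484). Its second probe set, 1428250_at, had a change of 0.36 (adjusted p = 0.551). That probe set read 496.1 on ERα(+/+) EE2 stroma replicate 2, one of the arrays high in muscle genes, and 6.2 to 43.3 on the other 35; the part of muscle RNA in this value was not tested.

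The estrogen-related receptors and ERβ showed no compartment difference past the threshold. Esrra, a regulator of mitochondrial genes, had medians of 125.7 in stroma and 150.25 in epithelium and a log2 change of 0.04. Esrrg had medians of 14.2 in stroma and 34.35 in epithelium and a log2 change of -0.73 ± 0.81 (SE). It exceeded the median signal of its own array on 5 of 18 stroma arrays and 9 of 18 epithelium arrays. Esr2 exceeded the median of its own array on 3 of 18 stroma arrays and 1 of 18 epithelium arrays, with ranges of 2.6 to 50 in stroma and 2.5 to 39.1 in epithelium. On the deposited scale Esr2 was not past an unadjusted p of 0.05 in any of the 26 comparisons.

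The p160 coactivators recruit histone acetyltransferases to the bound receptor. Of them, Ncoa3 ran between 13.5 and 342.5 with a median of 176.6 in stroma, and between 62.1 and 546.2 with a median of 328.35 in epithelium. The change of -0.84 ± 0.36 (SE) missed the threshold (adjusted p = 0.112) and stood at -0.48 relative to the median of all probe sets. It passed without the dim arrays (-0.74, adjusted p = 0.0482), without ERα(+/+) vehicle epithelium replicate 2 alone (-0.98, adjusted p = 0.0442), and with the replicate number as a block (adjusted p = 0.0256). Ncoa1 medians were 201.3 in stroma and 203.1 in epithelium, and Ncoa2 medians were 1008.55 in stroma and 1153.2 in epithelium. Nrip1, which encodes the corepressor RIP140, had medians of 484.45 in stroma and 553.05 in epithelium. The changes of Ncoa1 (-0.02), Ncoa2 (-0.24), Nrip1 (-0.21) and Esr2 (-0.39) turned their sign under at least 1 of the 2 scalings that centre the arrays, and none passed the test on any scale. In all, 3 of the 9 genes (Esr1, Gper1, Ncoa3) were at an unadjusted p under 0.05, against 30.5% of all probe sets, and the median change of all 9 genes was -0.21, against -0.35 for all probe sets.

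**Figure D2:**
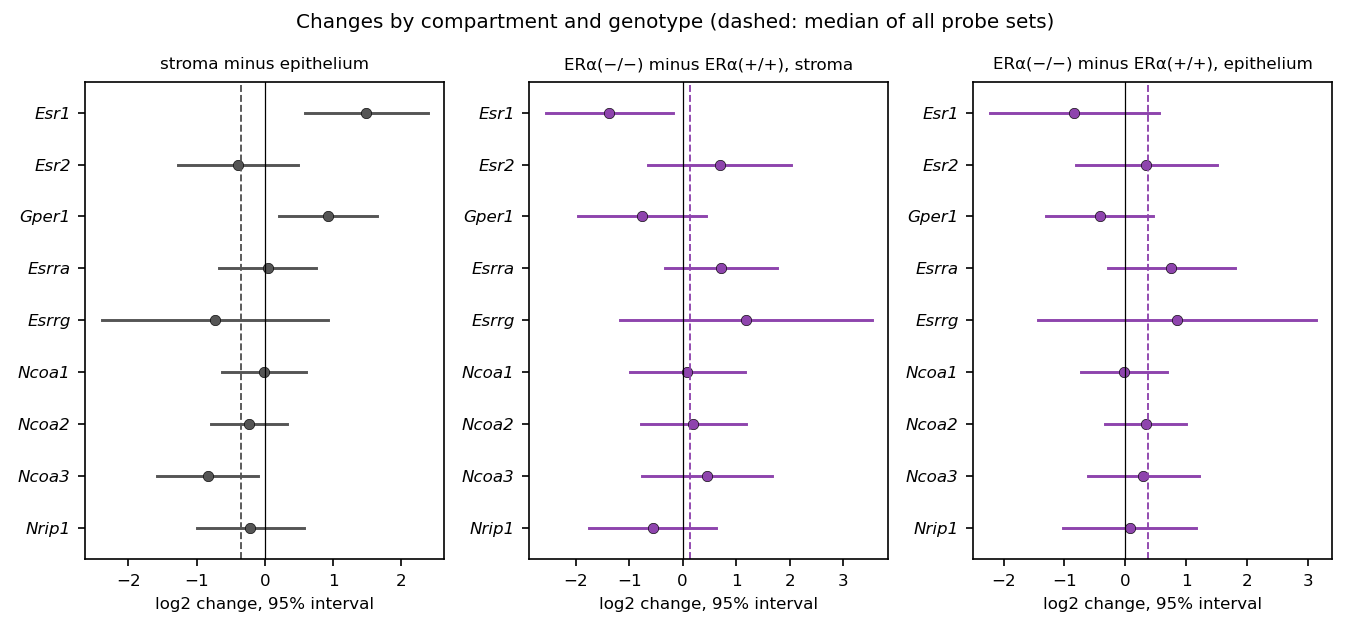
Log2 change of the 9 genes at their standing probe set with the 95% interval: stroma minus epithelium (36 arrays), and ERα(-/-) minus ERα(+/+) within stroma and within epithelium (18 arrays each). The dashed line is the median change of all probe sets. Esr1 lies highest between compartments (1.48) and lowest between genotypes in both compartments (-1.37 and -0.84).

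Within each genotype, the compartment difference of Esr1 at 1435663_at was 1.22 in ERα(-/-) glands (adjusted p = 0.252; 5.8% of all probe sets called) and 1.74 in ERα(+/+) glands (adjusted p = 0.106; 5.34% called); without the epidermis-high ERα(+/+) vehicle epithelium replicate 3 the ERα(+/+) value passed the test (2.12, adjusted p = 0.0348). The probe set 1421244_at gave a change of -0.02 in ERα(-/-) and 2.50 in ERα(+/+), where it passed the test (adjusted p = 0.0217). The difference between genotypes of these 2 changes was -2.53 (unadjusted p = 0.0112, adjusted p = 1.00; 0% of all probe sets called, 3.71% at an unadjusted p under 0.05). At 1435663_at that difference was -0.53. Signals of 1421244_at in epithelium were low: 0.4 to 106.6 in ERα(+/+) (median 5.2, mean 20.2) and 9.5 to 49.7 in ERα(-/-) (median 14.6, mean 20.1). They exceeded the median of their own array on 2 of 9 ERα(+/+) and 0 of 9 ERα(-/-) epithelium arrays. The log2 changes at 1421244_at thus rest in part on values near 0. As a description, 1421244_at correlated with 1435663_at at r = 0.35 over the 36 arrays, against r = 0.72 for 1460591_at.

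The genotypes were then compared within each compartment. In stroma 1 probe set of all was called (0.00222%), and none belonged to the 9 genes. Esr1 averaged 41.0 ± 19.9 in ERα(-/-) stroma and 140 ± 122 in ERα(+/+) stroma (SD, n = 9 each). Its log2 change was -1.37 ± 0.56 (SE; limma, unadjusted p = 0.0273, adjusted p = 1.00), and its other probe sets had -0.75 and -1.20. It was the only one of the 9 genes at an unadjusted p under 0.05, against 3.82% of all probe sets. Within vehicle arrays alone, the Esr1 values of 26.3, 34.6 and 37.6 in ERα(-/-) stroma lay below all of 50.4, 201.3 and 396.7 in ERα(+/+) stroma, a log2 change of -2.29 ± 0.98 (SE; limma, unadjusted p = 0.0319, adjusted p = 0.999). In this comparison 4.07% of all probe sets were at an unadjusted p under 0.05. The value of 201.3 was read on the dim array and 396.7 on the array high in epidermis genes. Leaving out 1 array in turn gave Esr1 changes of -3.12 to -1.63.

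Gper1 separated in the same vehicle arrays, and how many of all probe sets do so was not counted. Its signals were 66.5, 68.2 and 127.8 in ERα(-/-) vehicle stroma, against 162.0, 1206.9 and 598.8 in ERα(+/+) vehicle stroma. The change of -2.55 ± 0.98 (SE; limma, unadjusted p = 0.0189) did not survive adjustment (adjusted p = 0.999; 0% of all probe sets called, 4.07% at an unadjusted p under 0.05). The high value of 1206.9 was read on the dim array and 598.8 on the array high in epidermis genes; leaving out 1 array in turn gave changes of -3.35 to -1.90. The second probe set, 1428250_at, had a change of 0.34 in these arrays. Over the 3 exposures together, Gper1 had a change of -0.77 in stroma (unadjusted p = 0.192).

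In epithelium 0% of probe sets were called between genotypes, and the median change of all was 0.38. Esr1 at 1435663_at averaged 28.7 ± 30.4 in ERα(-/-) epithelium and 48.3 ± 44.4 in ERα(+/+) epithelium (SD, n = 9 each), with a change of -0.84 ± 0.65 (SE; adjusted p = 0.701). Its other probe sets pointed opposite ways, -1.04 at 1460591_at and 1.78 at 1421244_at. On the deposited scale none of the 9 genes was at an unadjusted p under 0.05 at its standing probe set, against 8.19% of all probe sets, although 6 of the 26 probe sets were, all of them with positive changes. After either centring of the arrays Esr1 was under 0.05, and 3 of the 26 probe sets were. Of all probe sets 5.47% were with quantile normalization and 5.11% with array medians subtracted. Esr1 passed the adjusted threshold in none of the alternatives. Esrra had changes of 0.71 in stroma and 0.76 in epithelium, and Esrrg of 1.18 and 0.84, neither past the threshold.

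The exposure comparisons in stroma called 0% of probe sets for BPA and for EE2 against vehicle, pooled or by genotype, and over both genotypes 4.54% and 4.51% were at an unadjusted p under 0.05. BPA and EE2 share their vehicle arrays, so the 2 sets of values are not independent, and their doses differ. Gper1 signals in ERα(+/+) stroma were 192.9, 150.2 and 31.0 with BPA, 30.1, 164.5 and 22.2 with EE2, and 162.0, 1206.9 and 598.8 with vehicle. Each exposed group held 1 or more values at or above the lowest vehicle value. The changes in ERα(+/+) stroma were -2.34 for BPA (limma, unadjusted p = 0.0291, adjusted p = 1.00; 3.83% of all probe sets under 0.05) and -3.35 for EE2 (unadjusted p = 0.00341, adjusted p = 0.999; 4.42%).

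Gper1 in ERα(-/-) stroma gave 39.9, 89.2 and 66.0 with BPA, 89.2, 220.8 and 35.6 with EE2, and 66.5, 68.2 and 127.8 with vehicle. The changes there were -0.43 for BPA and 0.09 for EE2, and these groups overlapped. The difference between genotypes in the EE2 change was 3.44 ± 1.38 (SE; limma, unadjusted p = 0.0241, adjusted p = 1.00; 3.99% of all probe sets under 0.05), and for BPA it was 1.91 (unadjusted p = 0.187). These 2 differences, and both changes in ERα(+/+) stroma, rest on the same 3 ERα(+/+) vehicle arrays. At the second probe set, 1428250_at, the changes in ERα(+/+) stroma were -0.01 for BPA and 1.14 for EE2, and over both genotypes in epithelium they were 0.62 and 1.07, none past the adjusted threshold.

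The coactivator Ncoa2 gave 1241.1, 167.8 and 152.1 in ERα(+/+) stroma with BPA, 1913.6, 519.7 and 1915.6 with EE2, and 1078.9, 946.5 and 1094.8 with vehicle. Of the 3 BPA values 2 were low and 1 was above the vehicle values, a change of -1.71 (limma, unadjusted p = 0.0483, adjusted p = 1.00). The other 3 Ncoa2 probe sets did not share it, with changes of -0.40 (1435233_at), 0.50 (1446827_at) and 0.75 (1450458_at), none at an unadjusted p under 0.05, and the last 2 correlated with the standing one at r = -0.23 and -0.36 over the 36 arrays. In ERα(-/-) stroma the Ncoa2 signals lay between 335.4 and 1124.0 with overlapping groups. Esr1 had changes in stroma of -0.30 ± 0.69 with BPA and -0.55 ± 0.69 with EE2 (SE), and Nrip1 of 1.35 ± 0.69 and 0.74 ± 0.69, none at an unadjusted p under 0.05. A second Nrip1 probe set, 1418469_at, had 1.36 with BPA and 1.14 with EE2 (unadjusted p = 0.0111 and 0.0297, adjusted p = 0.993 and 0.996).

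In the epithelium most of the 9 genes averaged higher with BPA than with vehicle, but none passed the adjusted threshold. Esr1 averaged 75.2 ± 45.1 with BPA, 26.8 ± 11.8 with EE2, and 13.6 ± 16.8 with vehicle (SD, n = 6 each). The log2 change was 3.37 ± 0.80 for BPA (SE; limma, unadjusted p = 0.000697, adjusted p = 0.153) and 1.97 ± 0.80 for EE2 (unadjusted p = 0.026, adjusted p = 0.529). Over all probe sets 0% were called for BPA and 0.00222% for EE2, and 17.7% and 8.88% were at an unadjusted p under 0.05. The medians of all probe sets were 0.68 for BPA and 0.40 for EE2, and with quantile normalization the Esr1 changes were 2.54 and 1.51. With an offset of 16 added to each signal before the log, which damps low values, the BPA change was 1.63. Esr1 exceeded the median signal of its own array on 3 of 6 arrays with BPA, 2 of 6 with EE2 and 1 of 6 with vehicle. The array medians themselves ran 29.9 to 66.8 with BPA, 25.5 to 64 with EE2, and 10.9 to 42.8 with vehicle.

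The Esr1 change rests in part on the lowest vehicle arrays, of 1.1, 1.6 and 2.9. Leaving out 1 array in turn gave BPA changes of 2.59 to 3.93. Without the epidermis-high ERα(+/+) vehicle replicate 3, the change was 3.93 and passed the test (adjusted p = 0.0398), with 229 probe sets called. The other Esr1 probe sets had 1.76 at 1421244_at and 1.94 at 1460591_at.

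**Figure D3:**
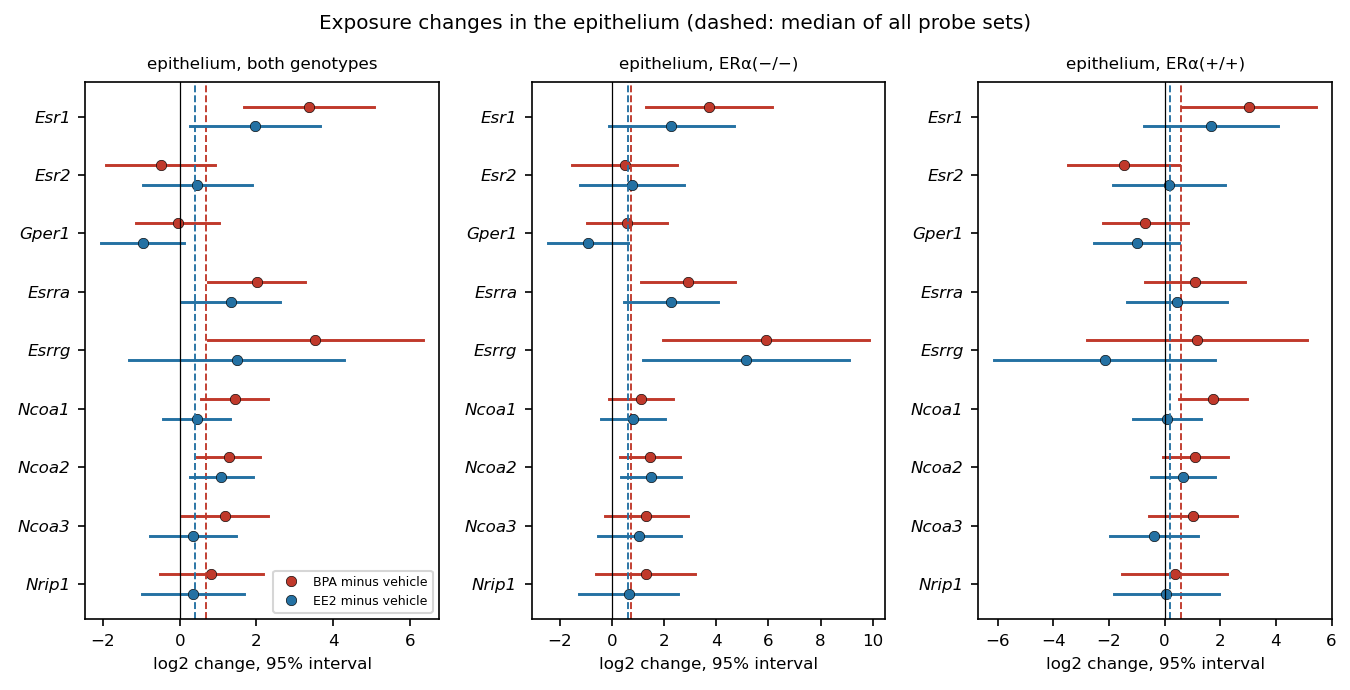
Log2 change of the 9 genes with the 95% interval in epithelium for BPA minus vehicle (red) and EE2 minus vehicle (blue), in both genotypes pooled, in ERα(-/-) and in ERα(+/+). Dashed lines are the median changes of all probe sets. In the pooled panel Esr1 (3.37) and Esrrg (3.54) lie farthest above the BPA line at 0.68, while Esr2 (-0.49) and Gper1 (-0.06) lie below it.

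The coactivators had smaller log2 changes than Esr1, with smaller standard errors. Ncoa2 in epithelium gave 1226.5, 1380.8 and 1821.8 in ERα(-/-) and 1272.6, 1180.5 and 1125.9 in ERα(+/+) with BPA. With EE2 it gave 1949.3, 1231.7 and 1426.9 in ERα(-/-) and 1398.1, 538.8 and 896.4 in ERα(+/+). With vehicle it gave 318.7, 825.1 and 572.8 in ERα(-/-) and 463.9, 355.8 and 1022.6 in ERα(+/+). All 6 BPA arrays lay above all 6 vehicle arrays, while 2 of the 6 EE2 arrays lay within the vehicle range. How many of all probe sets separate BPA from vehicle in this way was not counted, here or for the genes that follow. The changes were 1.28 ± 0.39 for BPA (SE; limma, adjusted p = 0.188) and 1.08 ± 0.39 for EE2 (adjusted p = 0.507).

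Ncoa1 in epithelium gave 192.2, 302.3 and 393.0 in ERα(-/-) and 459.5, 281.7 and 716.4 in ERα(+/+) with BPA. With EE2 the values were 282.9, 206.5 and 199.7 in ERα(-/-) and 209.6, 106.6 and 129.6 in ERα(+/+), and with vehicle 65.4, 170.4 and 194.5 in ERα(-/-) and 128.4, 87.9 and 220.1 in ERα(+/+). The 3 ERα(+/+) BPA arrays lay above all vehicle arrays, and the ERα(-/-) groups overlapped. The BPA change was 1.44 ± 0.41 (SE; adjusted p = 0.177), and that of BPA over EE2 was 0.99 ± 0.41 (limma, unadjusted p = 0.0274, adjusted p = 1.00; 4.22% of all probe sets under 0.05). Ncoa3 ran 338.1 to 546.2 with BPA (median 413.7), 62.2 to 471.6 with EE2 (median 280.9), and 62.1 to 424.1 with vehicle (median 243.85). Its BPA change was 1.17 ± 0.53 (SE; adjusted p = 0.269), and at its second probe set, 1422737_at, all BPA arrays lay above all vehicle arrays (40.4 to 143.8, against 6.9 to 36.3; change 1.73, adjusted p = 0.164). With array medians subtracted the BPA changes of the coactivators were 0.38 for Ncoa2, 0.53 for Ncoa1 and 0.27 for Ncoa3, and the EE2 change of Ncoa2 was 0.55.

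For the estrogen-related receptors the exposed and vehicle arrays were apart in ERα(-/-) epithelium. Esrra there gave 281.4, 410.3 and 326.0 with BPA, 397.1, 139.4 and 169.0 with EE2, and 52.2, 56.5 and 28.9 with vehicle. Neither exposed group overlapped vehicle, with changes of 2.93 ± 0.85 for BPA (SE; limma, adjusted p = 0.348) and 2.26 ± 0.85 for EE2 (adjusted p = 0.552). With array medians subtracted these were 1.89 and 1.42. The array medians of ERα(-/-) epithelium were themselves apart for BPA (50.1, 61.5 and 66.8, against 26.2, 42.8 and 21.2 with vehicle). The median change of all probe sets there was 0.74 for BPA and 0.60 for EE2. How many of all probe sets separate in this way was not counted. In ERα(+/+) epithelium Esrra gave 226.7, 218.7 and 42.8 with BPA, 91.6, 36.7 and 164.4 with EE2, and 161.1, 17.8 and 78.6 with vehicle, and all groups overlapped. On the deposited scale the difference between genotypes in the Esrra BPA change was 1.85 and passed no threshold. With quantile normalization it was at an unadjusted p under 0.05, against 4.32% of all probe sets, and with array medians subtracted it was not. No probe set passed the adjusted threshold on either scale.

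Esrrg, whose signal was low on most arrays, gave 165.9, 64.1 and 76.0 with BPA, 26.7, 104.4 and 58.2 with EE2, and 3.2, 5.8 and 0.2 with vehicle in ERα(-/-) epithelium. In ERα(+/+) epithelium it gave 106.5, 20.6 and 14 with BPA, 42.0, 1.2 and 0.6 with EE2, and 86.6, 0.5 and 62.4 with vehicle. Exposed and vehicle arrays were apart in ERα(-/-) and mixed in ERα(+/+). For Esrrg too, how many of all probe sets separate in this way was not counted, and the BPA array medians were themselves apart in ERα(-/-). The changes in ERα(-/-) were 5.91 for BPA (adjusted p = 0.358) and 5.14 for EE2 (adjusted p = 0.541), where 0.00222% and 0.00443% of all probe sets were called and 11.2% and 8.57% were at an unadjusted p under 0.05. The difference between genotypes in the EE2 change was 7.30 ± 2.63 (SE; limma, unadjusted p = 0.0139, adjusted p = 0.772; 6.01% of all probe sets under 0.05). These sizes depend on values near 0. With an offset of 16 the changes in ERα(-/-) were 2.54 for BPA and 1.94 for EE2, and at 1421747_at, the Esrrg probe set of highest mean log2 signal, they were 1.82 and 1.17. The difference between genotypes was between 0.25 and 9.70 over the alternatives run. The other Esrrg probe sets had BPA changes over both genotypes of 1.75 (1421747_at) and 0.74 (1455267_at), and they correlated with the standing one at r = 0.08 and 0.38.

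Counted over the 9 genes, 6 were at an unadjusted p under 0.05 for BPA in epithelium, all with positive changes, and 14 of the 26 probe sets were, against 17.7% of all probe sets. The median change of the 9 genes was 1.28, against 0.68 for all probe sets. With array medians subtracted the counts were 4 of 9 genes (Esr1, Esrra and Esrrg with positive changes, Esr2 with a negative one) and 4 of 26 probe sets, against 8.64% of all, and with quantile normalization 6 of 9 genes (the same 4, Ncoa1 and Ncoa2) and 7 of 26 probe sets, against 8.47%. For EE2 the count was 3 of 9 (Esr1, Esrra, Ncoa2), with a median of 0.46 against 0.40; after centring it was 1 (Gper1, array medians subtracted) or 2 (Gper1 and Ncoa2, quantile normalization), the Gper1 changes being negative. By genotype, on the deposited scale, BPA had 4 of 9 in ERα(-/-) (Esr1, Esrra, Esrrg, Ncoa2; 11.2% of all probe sets) and 2 of 9 in ERα(+/+) (Esr1, Ncoa1; 8.44%), and 0 of 9 differed between genotypes (3.47%). With quantile normalization 1 of 9 differed between genotypes (Esrra, against 4.32% of all probe sets). EE2 had 3 of 9 in ERα(-/-) (Esrra, Esrrg, Ncoa2; 8.57%) and 0 of 9 in ERα(+/+) (6.15%). On the deposited scale Gper1, Esr2 and Nrip1 were in none of these counts. Gper1 had changes of -0.06 ± 0.51 with BPA and -0.96 ± 0.51 with EE2 (SE), and Nrip1, with a change of 0.83 for BPA, was at -0.08 when array medians were subtracted.

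The 17 further probe sets correlated with the one standing for their gene at r = -0.36 to 0.72 over the 36 arrays, with array medians subtracted, and 6 of them were below 0: both of Ncoa1 (-0.06 and -0.26), 2 of Ncoa2, that of Ncoa3 (-0.21) and 1 of Nrip1. Between compartments their changes ran from -0.70 to 1.30, with 3 at an unadjusted p under 0.05 and 0 past the adjusted threshold. For BPA in epithelium they ran from 0.05 to 2.31, with 17 of 17 positive, 8 at an unadjusted p under 0.05 and 0 past the adjusted threshold. Those of Ncoa1 had 0.98 (1418594_a_at) and 0.05 (1443397_at), those of Ncoa2 ran from 0.80 to 1.09, and that of Esrra, 1460652_at, had 1.34, against 2.00 at the standing one.

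**Figure D4:**
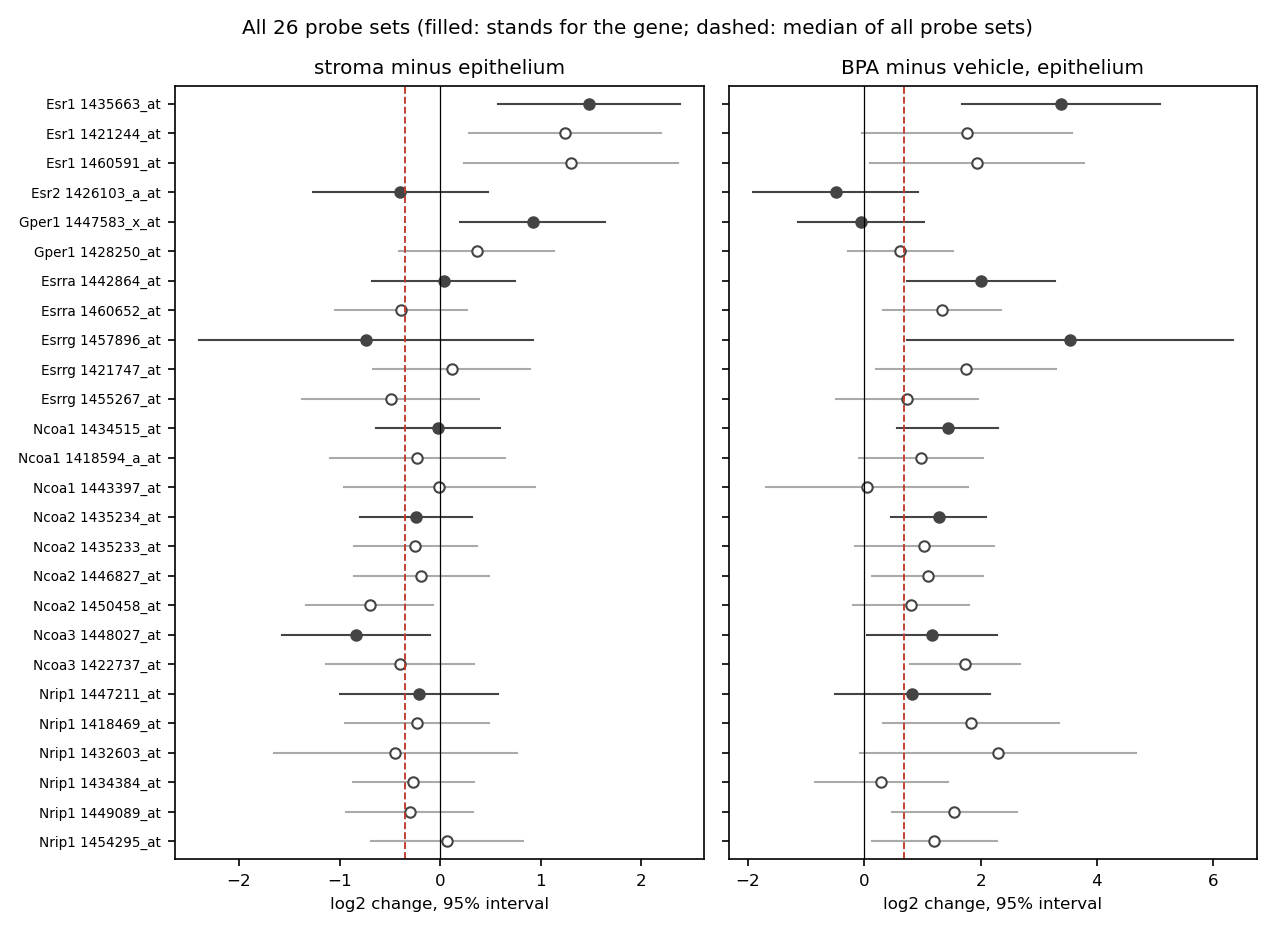
Log2 change with the 95% interval at all 26 probe sets, stroma minus epithelium on the left and BPA minus vehicle in epithelium on the right. Filled points stand for their gene and open points are the further probe sets. All 3 Esr1 probe sets lie above 1 in both panels, and the dashed lines mark the medians of all probe sets (-0.35 and 0.68).

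Markers of stromal cell types also averaged higher in epithelium with BPA and EE2 than with vehicle. Fibroblast markers summed to 14417.4 to 28968.7 with BPA (median 21358.6), 13638.3 to 26350.3 with EE2 (median 17776.25), and 7430.5 to 29045.5 with vehicle (median 10438.05). Adipocyte markers (Adipoq, Fabp4 and others, 6 genes) had medians of 22974.55 with BPA, 14778.7 with EE2 and 8411.7 with vehicle, and endothelial markers (Pecam1, Kdr and others, 6 genes) of 1862.55 with BPA, 1221.65 with EE2 and 306.7 with vehicle. Epithelial markers had medians of 14801.25 with BPA, 13469.35 with EE2 and 12343.9 with vehicle, and the array medians ran in the same order (50.6, 38.75 and 31.3). Of the markers measured, 0 of the 7 fibroblast, 6 adipocyte, 6 endothelial and 6 leukocyte genes were called for BPA. At an unadjusted p under 0.05 were 2, 1, 3 and 2 of them, all with positive changes, against 17.7% of all probe sets. In ERα(+/+) vehicle epithelium, Esr1 was 17.9, 1.1 and 44.8 on arrays whose fibroblast sums were 10159.5, 7430.5 and 29045.5. The part of captured stromal RNA in the Esr1 and coactivator values of the epithelium was not tested.

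**Figure D5:**
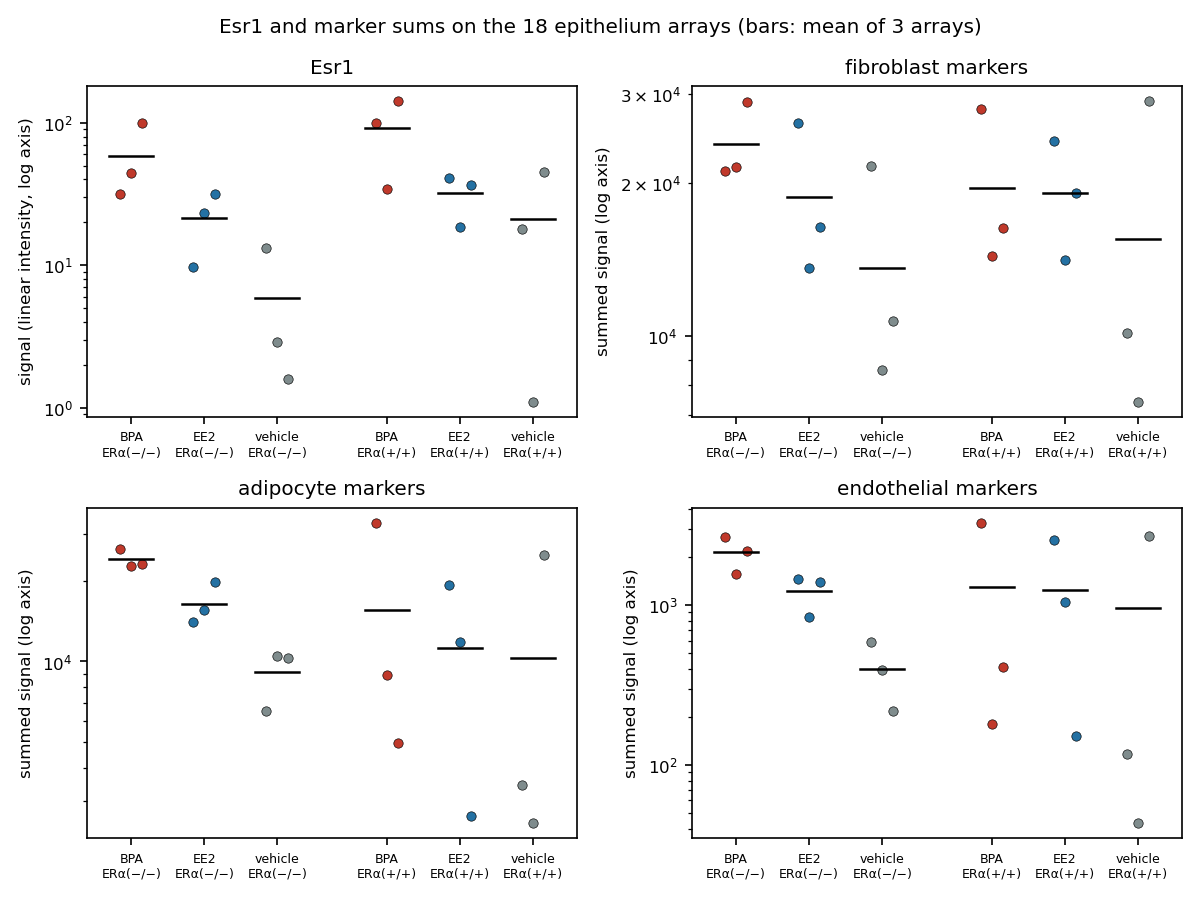
Esr1 signal and the summed signals of fibroblast, adipocyte and endothelial markers on each of the 18 epithelium arrays (log axes) by exposure and genotype. Points are arrays and bars are means of 3. The lowest point of each panel is a vehicle array, and ERα(+/+) vehicle replicate 3 is the highest vehicle array in each (Esr1 44.8, fibroblast sum 29045.5).

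Other genes of the pathway were taken as lists by role and compared between compartments, where 13.2% of all probe sets were called lower in stroma and 3.49% higher. Among related receptors, Pgr, the progesterone receptor gene and a classical ERα target, was lower in stroma: 20.7 ± 21.5 in stroma and 390 ± 198 in epithelium (SD, n = 18 each; change -4.83, adjusted p = 8.34e-08). The other genes of that list and its median are not described here, so Pgr does not stand for the list. Of 27 other coactivators 0 were called higher and 10 lower, led by the Mediator subunit gene Med14 (-1.62) and Ncoa7 (-1.31), with a list median of -0.65. Of 19 other corepressors 4 were called lower, led by Tbl1xr1 (-1.15) and Hdac3 (-1.08), both genes of the NCoR complex, and 0 higher, with a median of -0.49. These medians stand beside -0.35 for all probe sets, and with quantile normalization the counts became 2 higher and 4 lower among the coactivators and 0 higher and 2 lower among the corepressors. Of 8 receptor chaperones 2 were lower, Hsp90aa1 (-1.29) and Fkbp4 (-1.14), and of 7 genes of estrogen metabolism 0 were called.

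Factors that bind DNA beside ERα or tether it there formed the last list. Of 9 measured, 6 were called lower and 1 higher in stroma, with a median of -1.57. Gata3, a luminal lineage factor, averaged 5.19 ± 7.68 in stroma and 172 ± 113 in epithelium (change -5.48, adjusted p = 2.34e-09), and Tfap2a averaged 29.3 ± 23.8 in stroma and 277 ± 164 in epithelium (change -3.75, adjusted p = 9.97e-07; SD, n = 18 each). Xbp1, a gene of the unfolded protein response, was higher in stroma (0.91, adjusted p = 0.0115). The direction of the Esr1 call is thus opposite to those of Pgr, Gata3 and Tfap2a on the same arrays, and the same as that of Xbp1. No gene of these 6 lists was called in any genotype or exposure comparison, on the deposited scale or after either centring of the arrays.

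The genes whose signal ran most like Esr1 over the 36 arrays, after each array's median was subtracted, were Adgrf5 (r = 0.78), Pdgfrb (r = 0.77), Col6a2, Clcn5 and Mylk (r = 0.75 each), of 10368 candidates. Pdgfrb, a receptor of mesenchymal cells and pericytes, is one of the fibroblast markers. Within stroma alone r was 0.88 for Adgrf5 and 0.82 for Pdgfrb, and within epithelium 0.62 and 0.60. The genes most like Gper1 were Lats2 (r = 0.75), Cs (r = 0.74), Smim4 (r = 0.73), Dst and Yipf5 (r = 0.72 each). The arrays behind these values share compartment and amplification, and the ranking is a description only.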

How the data were processed

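Laser-captured RNA was amplified and hybridised to Affymetrix Mouse Genome 430 2.0 arrays, 36 in all. As deposited by the authors, the values are linear intensities per probe set made from scans read with GCOS per the labels. The methods describe RMA and a log transform, which these values do not show (39 are 0 and array medians differ), and their scaling is not given in the sources used here. Precision is limited by having 3 arrays a group.

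Values were raised to at least 0.1, log2-transformed and fitted with limma 3.58.1 (R 4.3.3), with Benjamini-Hochberg adjustment over 45101 probe sets and a threshold of 0.05. Compartments were compared over all 36 arrays, and genotypes and exposures over the 18 of a compartment. Probe sets were named from GEO's platform annotation (34958 with 1 symbol, 932 with several, 9211 with none). The members, pathway lists and markers were chosen with earlier results of these data known. Of each pathway list, the genes that passed were counted and the 2 largest in each direction named; likeness is Pearson correlation with array medians subtracted, over genes with a mean signal of at least 50. The model was also run on simulated data with independent noise and added changes of known size. That simulation held no array-wide shifts and no shared glands, unlike these arrays, and no result here rests on it. Alternatives were quantile normalization, array medians subtracted, an offset of 16, a filter on mean log2 signal of 5, array weights, an intensity-dependent prior, the replicate number as a block, other sample sets, arrays left out, and the methods' t-test. Stroma and epithelium were captured from the same glands per the methods, but the sources used here do not say that a replicate number marks a gland, so the main fit has no block.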

Additional observations from a re-analysis of the deposited data

How the results depend on the processing

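Over 35 results for single genes, 1171 of 1189 alternative values kept their direction and their side of the threshold, 18 passed it newly, and 0 reversed or lost it. These results were chosen for an unadjusted p under 0.05 in the main fit, with the Esr1 genotype changes added. Only Esr1 between compartments passed the adjusted threshold there. The others had no call to lose, so the tally is not a measure of robustness. Signal limits Esr2 and Esrrg, which lay below their array's median on most arrays, and Esr1 in epithelium, where it exceeded that median on 6 of 18 arrays. Groups of 3 arrays leave wide intervals in the genotype and exposure comparisons.

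Stroma minus epithelium called 7532 probe sets, 3711 without the muscle-high arrays, and 6381 to 9325 with 1 array left out; the count of the 9 genes called was 1, and 2 under quantile normalization, median subtraction, the offset, the filter, array weights, the replicate block or without the dim arrays (1 to 2 with 1 array left out). Within ERα(-/-) it called 2616, and 4705 with the offset, 6357 with array weights, 4082 without the dim arrays and 1110 without the muscle-high arrays (1664 to 3250 with 1 array left out). Within ERα(+/+) it called 2410, and 941 without the muscle-high arrays (1603 to 2834 with 1 array left out); 0 of the 9 genes were called, and 1 under quantile normalization or median subtraction (0 to 1 with 1 array left out). The cause of these shifts was not tested, beyond the fewer arrays fitted.

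Esr1 within ERα(+/+) passed under quantile normalization (1.92, adjusted p = 0.0496) and median subtraction (2.00, adjusted p = 0.0453). ERα(-/-) minus ERα(+/+) called 1 probe set in stroma, 0 with the offset, the filter, the block or all 36 arrays fitted together, and 1 to 2 with 1 array left out. In epithelium it called 0, and 0 to 5 with 1 array left out; among vehicle epithelium arrays it called 0, 1 with the filter, and 0 to 10 with 1 array left out.

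BPA minus vehicle in epithelium called 0, and 1 with the offset or without the dim arrays, 2 with the filter, 7 with array weights, 4 without the muscle-high arrays, 3 by the methods' t-test after Benjamini-Hochberg adjustment, and 0 to 229 with 1 array left out; the 9 genes had 0 to 1. Within ERα(-/-) it called 1, 0 under 8 settings, and 0 to 29 with 1 array left out, and within ERα(+/+) 0, 10 without the muscle-high arrays, and 0 to 51. EE2 minus vehicle in epithelium called 1, 0 under 10 settings, and 0 to 10 with 1 array left out. Within ERα(-/-) it called 2, 1 with the filter, 0 under 11 settings, and 0 to 25, and within ERα(+/+) 0, 1 under quantile normalization or without the muscle-high arrays, and 0 to 14. Its difference between genotypes called 0 to 1, as did BPA and EE2 in ERα(+/+) stroma, with 1 array left out. BPA minus EE2 in stroma called 0, and 1 by the methods' t-test.

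A setting without the 2 epidermis-high arrays was added after seeing the data. It called 1 probe set between genotypes in epithelium and 10 among vehicle epithelium arrays, 229 for BPA in epithelium (1 of the 9 genes, Esr1) and 51 within ERα(+/+), and 10 for EE2 and 14 within ERα(+/+).

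The methods' t-test, at its own threshold of p and a fold of 2, passed 4852 probe sets for BPA in epithelium (10.8%), among them Esr1, Esrra, Ncoa1 and Ncoa2, and Esr1 for genotype in stroma (1207, 2.68%). For BPA it passed Esr1, Esrra and Esrrg in ERα(-/-) epithelium (8.54% of all probe sets) and Ncoa1 in ERα(+/+) epithelium (2.48%). For EE2 it passed Ncoa2 in epithelium (4.3%), and Esrra and Ncoa2 in ERα(-/-) epithelium (5.29%). Esr1 passed for BPA minus EE2 in epithelium (2.88%). After adjustment 0 of the 9 genes remained in any comparison.

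The replicate number as a block raised the compartment count to 9139. Of 18 stroma and epithelium pairs of 1 number, 7 correlated over 0.1 (mean r = 0.0774), and of 9 genotype pairs 0 did in either compartment. The methods state that each treated litter gave 1 fetus of each genotype, so arrays of both genotypes can share a litter. These correlations cannot tell whether a number marks a litter. Whether a number marks 1 gland in both compartments is not stated: 10 of 18 stroma arrays correlated best, of all 18 epithelium arrays, with that of their own group and number, the dim and the epidermis-high arrays had the same number in both compartments, and muscle-high arrays did for 2 numbers (3 stroma and 4 epithelium arrays). Ncoa3 passed the test under the block (-0.84, adjusted p = 0.0256), and no other call of the 9 genes changed.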
